A study of Homo sapiens with 17 samples.

Results

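The immediate early genes FOS, FOSB, JUN, JUNB, EGR1, IER2, IER3, KLF6 and ZFP36 and the early growth gene MYC were followed through a CUT&Tag series on HNRNPU in human pluripotent stem cells. The 10 genes were chosen by name from 20037 protein-coding genes of the RefSeq table (GRCh38), and every called summit from 20 kb before to 20 kb after each gene was taken from all 17 libraries. This gave 967 summits. The cells were of the H1 line, an established human embryonic stem cell line, grown in mTeSR1 on Matrigel. CUT&Tag uses an antibody to bring a transposase to a protein or histone mark and sequences the cut fragments, so that a summit marks a base of locally highest signal and not a level of RNA. In 2 libraries, HNRNPU itself was profiled in untransfected cells. The histone marks H3K4me1 and H3K27ac were profiled in cells that carried a lentiviral short hairpin RNA against HNRNPU, named shHNRNPU#1 or shHNRNPU#2, or a hairpin named shLUC as the control, each after puromycin selection and each in 2 libraries per hairpin and mark. The antibody named POLIIS2P was used on 1 shHNRNPU#1 library and 2 shLUC libraries. The labels do not spell this name out, and the protocol's list of primary antibodies holds neither it nor H3K4me1. Nothing in the labels says that libraries of 1 group came from separate cultures, so the spread between them may be technical.

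The antibody of the 4 shLUC histone libraries is given in opposite ways, as H3K4me1 in the title where the peaks are named H3K27ac and the reverse. The values below follow the peak names, and the values by title are given for each gene without overlap and together after the histone results. The lists held 147145 to 214333 summits for H3K4me1, 40487 to 90914 for H3K27ac, 34649 to 35526 for HNRNPU and 79949 to 87456 for POLIIS2P. Read depth is unknown. Because a longer list reaches down to weaker peaks, each summit was placed by its percentile, the share of summits in its own list with a score at or below its own, and each gene was summarised by its highest summit, with 0 for no summit. Percentiles do not remove the length of a list. In H3K27ac, the median over all genes ran from 67.0 in the list of 40487 summits to 86.4 in that of 90914. Pluripotency genes and markers of differentiated cells were separated best by H3K27ac. In the 2 shLUC libraries of H3K27ac, 8 and 7 of 8 pluripotency genes had a summit in the gene or within 1 kb, against 2 and 3 of 11 markers of differentiated cells. The presence of a summit separated them less in the other lists, and for HNRNPU it was 4 and 5 of 8 against 9 and 7 of 11. The HNRNPU gene had a summit at percentile 90.9 or above in every library. A hairpin acts on RNA, so this says nothing about the knockdown, and HNRNPU was not profiled in the knockdown cells.

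Immediate early genes are switched on within minutes of a growth signal, without new protein synthesis, by transcription factors that already sit at their promoters. FOS and FOSB pair with JUN or JUNB to make the AP-1 transcription factor. EGR1 and KLF6 are zinc finger transcription factors, and MYC drives growth and proliferation. IER2 and IER3 are small proteins of the early response, IER3 being linked to cell survival, and ZFP36 binds AU-rich elements in messenger RNAs and brings about their decay. HNRNPU, also called SAF-A, is an RNA-binding protein of the nuclear matrix. H3K4me1 marks primed and active enhancers and the flanks of promoters, and H3K27ac marks active enhancers and promoters. Phosphorylation of serine 2 in the tail of RNA polymerase II, to which the antibody name seems to refer, is a mark of elongating polymerase that is strongest towards gene ends.

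RefSeq promoter entries (GRCh38.p14) were found for 8 of the 10 genes, all except IER3 and MYC. Of these, 5 are shown, and those of FOSB, JUNB and ZFP36 are not. Each is the 250 bases before the gene's start, read 5′ to 3′ on the gene's own strand, at chr5:138465229-138465478 (+) for EGR1, chr14:75278578-75278827 (+) for FOS, chr1:58784048-58784297 (-) for JUN, chr10:3785210-3785459 (-) for KLF6 and chr19:13150161-13150410 (+) for IER2. Capitals mark matches to the motifs searched.
EGR1: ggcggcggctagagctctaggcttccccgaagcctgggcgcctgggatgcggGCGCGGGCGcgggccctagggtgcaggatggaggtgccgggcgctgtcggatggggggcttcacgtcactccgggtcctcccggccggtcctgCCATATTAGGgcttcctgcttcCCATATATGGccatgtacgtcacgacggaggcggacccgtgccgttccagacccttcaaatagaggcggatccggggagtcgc
FOS: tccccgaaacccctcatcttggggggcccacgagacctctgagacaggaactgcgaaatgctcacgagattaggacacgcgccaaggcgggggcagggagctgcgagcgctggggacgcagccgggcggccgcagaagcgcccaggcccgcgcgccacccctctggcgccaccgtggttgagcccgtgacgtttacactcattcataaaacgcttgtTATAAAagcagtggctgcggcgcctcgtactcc
JUN: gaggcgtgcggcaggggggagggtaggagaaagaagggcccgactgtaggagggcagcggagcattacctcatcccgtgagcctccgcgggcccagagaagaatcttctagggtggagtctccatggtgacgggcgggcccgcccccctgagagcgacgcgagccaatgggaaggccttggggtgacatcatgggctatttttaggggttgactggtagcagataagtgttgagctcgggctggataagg
KLF6: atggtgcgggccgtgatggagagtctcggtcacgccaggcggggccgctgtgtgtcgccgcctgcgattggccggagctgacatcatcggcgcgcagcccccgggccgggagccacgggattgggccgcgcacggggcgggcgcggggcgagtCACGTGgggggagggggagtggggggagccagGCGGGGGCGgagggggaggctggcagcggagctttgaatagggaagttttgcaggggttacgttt
IER2: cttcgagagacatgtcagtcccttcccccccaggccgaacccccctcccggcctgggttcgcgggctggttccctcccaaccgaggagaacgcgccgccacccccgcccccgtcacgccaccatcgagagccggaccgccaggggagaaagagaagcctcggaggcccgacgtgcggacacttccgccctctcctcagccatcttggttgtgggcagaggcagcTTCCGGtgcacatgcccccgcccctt

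The motifs, searched on both strands, were the serum response element (CC, then 6 bases of A or T, then GG), the CRE (TGACGTCA), the AP-1 site (TGANTCA), the TATA box (TATAAA), the ETS core (CCGGAA), the E-box (CACGTG) and the EGR site (GCGNGGGCG). EGR1 held 2 serum response elements, at 105 to 96 and 83 to 74 bases before its start, in a window where 1.18% of 22199 promoter entries of protein-coding genes held 1. The TATA box was present in FOS, FOSB and JUNB, at 33 to 28, 30 to 25 and 31 to 26 bases before the start, against 9.0% of all entries. An EGR site was present in EGR1 and KLF6 (10.9% of all entries), an E-box in KLF6 (7.37%) and an ETS core in IER2 and FOSB (18.0%). The AP-1 site (5.36%) and the CRE (2.01%) were found in none of the 8 windows as spelled here. The 8 windows were 62.0 to 76.4% G or C, and the median of all entries was 62.0%. Only the 250 bases before the start were searched, so a motif not found here may lie elsewhere. The matches are matches of letters and were not tested for binding.

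HNRNPU summits lay at the promoters of most of these genes in both untransfected libraries. A summit of both repeats fell in the gene or within 1 kb of it for 9 of the 10 genes, with JUNB as the exception, against 63.7% of all protein-coding genes. A deposited list of HNRNPU intervals for both repeats together gave the same count of 9, against 76.4%. Within 1 kb of the start alone, both repeats had a summit at 7 genes (FOS, JUN, EGR1, KLF6, MYC, IER2 and ZFP36). In repeat 1 and repeat 2, each counted alone, 54.9% and 54.4% of 15845 genes with a known strand had such a summit. The share with a summit in both was not computed. The share of 7 in 10 was not tested against that background. The FOS summit was at the same base in both repeats, at -271 bp from the start, and so was the MYC summit, at 714 bp within the gene. Over the whole lists, 3.09% of HNRNPU summits were called at the same base in both repeats.

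The strongest HNRNPU peaks of the group were at JUN. JUN (chr1:58780791-58784047, minus strand) had HNRNPU summits at percentiles 99.4 and 99.2, at -69 and -188 bp from the start, both within the JUN sequence printed above. With these values JUN stood above 98.2% and 97.4% of all genes in the 2 repeats. EGR1 (chr5:138465479-138469303) followed at 97.4 and 98.2, with summits at -851 and -672 bp. KLF6 (chr10:3775996-3785209, minus strand) was at 86.5 and 95.5, at -129 and -376 bp, the first of which lies in the printed sequence. MYC (chr8:127735434-127742951) was at 88.8 and 95.1. Among these 4 genes, the difference between repeats was larger for KLF6 and MYC than the distance from EGR1 to JUN.

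FOS (chr14:75278828-75282230) had 3 strong HNRNPU peaks. The promoter summit reached percentiles 92.9 and 88.9. A peak at -19693 and -19672 bp reached 98.1 and 97.1, and a peak at 15246 bp in both repeats reached 93.6 and 92.8. Neither distal peak was within 1 kb of another protein-coding gene. IER2 (chr19:13150411-13154911) had a promoter summit at -56 and -58 bp, inside the printed sequence, at percentiles 60.2 and 66.0, and stronger summits inside the gene at 1316 and 1485 bp, at 74.1 and 87.0.

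HNRNPU was weaker at the remaining genes themselves. FOSB (chr19:45467996-45475179) was at 48.3 and 47.8, from a summit within the gene at 1954 and 1895 bp. ZFP36 (chr19:39406847-39409407) was at 21.8 and 22.8, at -275 and -333 bp. IER3 (chr6:30743199-30744547, minus strand) was at 68.0 and 60.6 from a summit past its 3′ end, at 1697 and 1671 bp. JUNB (chr19:12791486-12793315) had 1 weak summit at 5.39 in repeat 1 and none in repeat 2. The 20 kb windows of JUNB and ZFP36 held stronger HNRNPU summits, up to 88.5 and 96.0, but those lay at HOOK2 and PLEKHG2. Over the 20 kb windows the median of the 10 genes was 91.9 and 95.3 in the 2 repeats, against 75.8 and 75.0 over all genes.

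**Figure D1:**
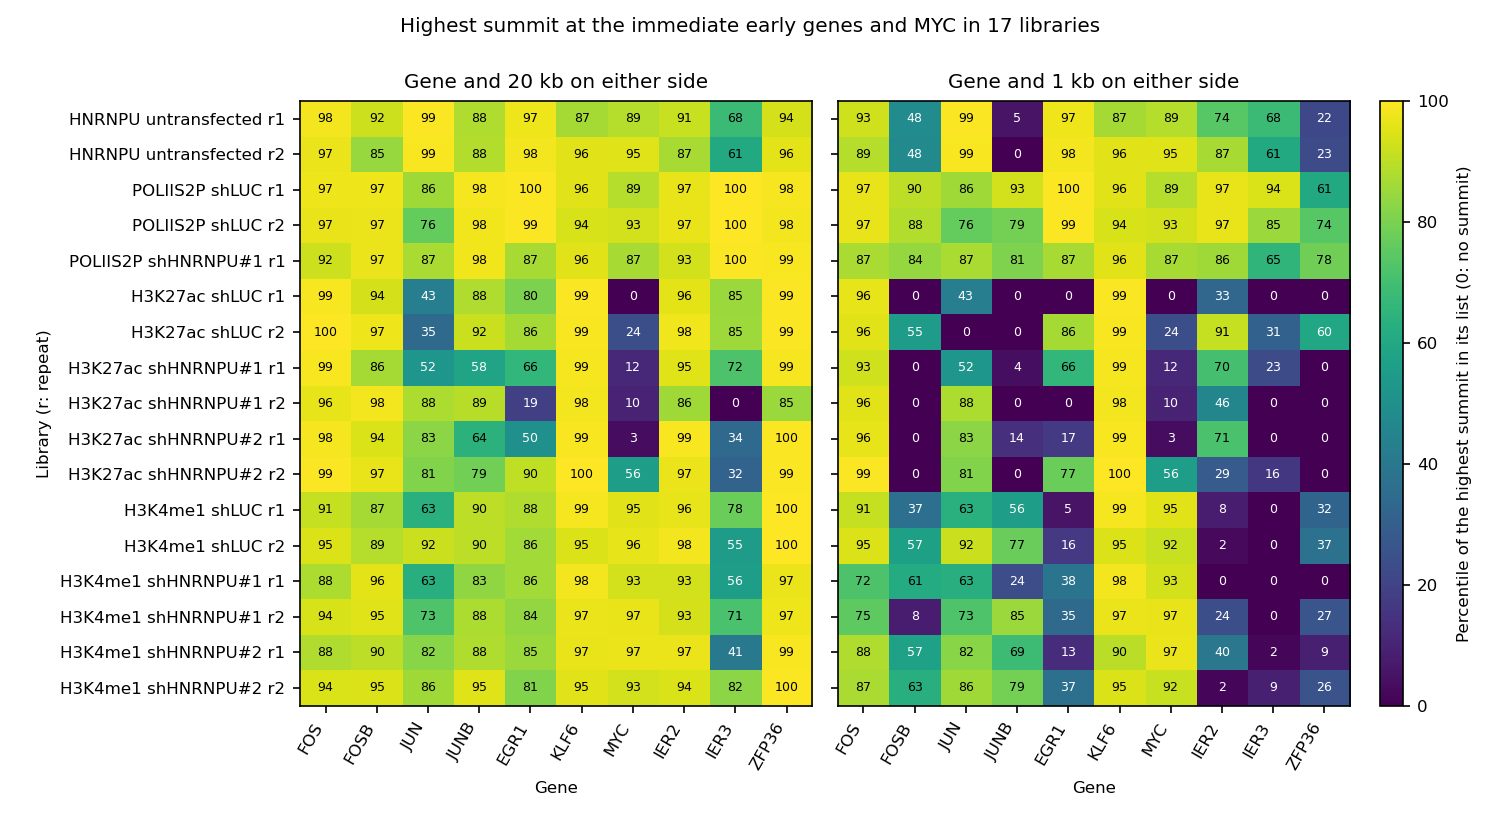
Percentile of the highest summit (0 to 100, 0 for no summit) for each of the 10 genes (columns) in each of the 17 libraries (rows), taken over the gene and 20 kb on either side (left) and over the gene and 1 kb (right). The highest HNRNPU summit of JUN, EGR1, KLF6 and MYC is the same in both panels, FOS falls from 98.1 and 97.1 at its distal peak to 92.9 and 88.9, and the high values of JUNB and ZFP36 in the left panel are absent from the HNRNPU and H3K27ac rows of the right panel in most libraries.

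How much of a window belonged to the gene itself differed. No other protein-coding gene lay in the windows of FOS, JUN, KLF6 and MYC. In the JUNB window 16 of 141 summits were at JUNB and 125 at its neighbours (HOOK2, PRDX2, THSD8 and RNASEH2A), and in the ZFP36 window 17 of 141 were at ZFP36. The values of these 2 windows therefore belong mostly to neighbouring genes.

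H3K4me1 was compared between the 4 shHNRNPU libraries and the 2 shLUC libraries, to ask whether knockdown of HNRNPU changed this mark at the genes. Most did not separate. FOSB was higher in all 4 shHNRNPU libraries than in both shLUC libraries, EGR1 and ZFP36 were lower, and the other 7 genes overlapped. Over 18872 genes with a summit, 7.11% were higher and 8.19% lower by the same rule, so that 1 and 2 of 10 are near the background. With 15 ways to choose 2 control libraries from 6, the exact permutation test cannot go below p = 0.0667. After Benjamini-Hochberg adjustment over all genes, its smallest value was 0.904.

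Among the AP-1 genes, FOSB had H3K4me1 percentiles of 95.9 and 95.3 in shHNRNPU#1, 89.9 and 94.9 in shHNRNPU#2, and 86.7 and 89.0 in shLUC. The mean difference was 6.12 points (94.0 ± 2.75, SD, n = 4, against 87.9 ± 1.65, n = 2, two-sided exact permutation p = 0.0667). The shLUC values and 3 of the 4 shHNRNPU values came from a peak at -12093 to -12122 bp, and the remaining shHNRNPU#2 value came from a peak at RTN2. By title the FOSB groups overlapped, and the difference was -1.50. At FOSB itself, within 1 kb, the groups overlapped with a mean difference of 0.516. FOS had 87.8 and 93.8 in shHNRNPU#1, 88.2 and 94.2 in shHNRNPU#2, and 91.3 and 94.7 in shLUC, which overlap. Within 1 kb of FOS, the shHNRNPU libraries were lower by a mean of 12.3 points (80.6 ± 8.13, n = 4, against 92.9 ± 2.32, n = 2, exact permutation p = 0.133). That value comes from the H3K4me1 peak in the second part of the gene, at 2445 and 2463 bp in shLUC. In the 1 kb windows, 0 of the 10 genes were higher in H3K4me1 and 2 lower (FOS and ZFP36), against 6.43% and 7.47% of all genes.

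JUN carried H3K4me1 at its start in all 6 libraries. Its percentiles were 63.2 and 72.5 in shHNRNPU#1, 82.4 and 85.8 in shHNRNPU#2, and 63.5 and 92.1 in shLUC. The 2 shLUC libraries lay far apart, 1 next to the lowest of the 6 and 1 at the top, and the difference turned from -16.1 without shLUC repeat 1 to 12.5 without shLUC repeat 2. JUNB overlapped, at 83.2 to 95.2 in shHNRNPU and 89.8 to 90.2 in shLUC.

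EGR1 had H3K4me1 percentiles of 86.0 and 83.6 in shHNRNPU#1, 85.0 and 81.0 in shHNRNPU#2, and 88.1 and 86.1 in shLUC. All 4 shHNRNPU values were below both shLUC values, with a mean difference of -3.21 (83.9 ± 2.16, n = 4, against 87.1 ± 1.42, n = 2, exact permutation p = 0.133), but the highest peak was not the same one. In both shHNRNPU#1 libraries it was at 21350 and 21356 bp, and in the other 4 it was between -15371 and -15402 bp. By title the EGR1 groups overlapped, with a difference of 0.522. Inside EGR1 the mark was low, and the means ran the other way, at 30.6 ± 12.2 in shHNRNPU and 10.8 ± 7.99 in shLUC, with the groups overlapping. ZFP36 had 97.2 and 97.5 in shHNRNPU#1, 98.8 and 99.5 in shHNRNPU#2, and 99.6 and 99.7 in shLUC. The difference of -1.43 in the means (98.2 ± 1.11 against 99.7 ± 0.0530, exact permutation p = 0.133) came from a peak at PLEKHG2, between 21687 and 21763 bp, and by title the ZFP36 groups overlapped, with a difference of -1.21.

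The other genes overlapped in H3K4me1. MYC had 93.1 and 96.6 in shHNRNPU#1, 97.2 and 93.3 in shHNRNPU#2, and 95.5 and 96.3 in shLUC. Its 2 strong peaks flanked the gene at -1315 to -1364 and 7740 to 7748 bp and were present in all 6 libraries, at 76.0 to 96.3 before the gene and 91.6 to 97.2 at its end. KLF6 ranged from 95.4 to 98.2 in shHNRNPU and from 94.8 to 98.8 in shLUC. IER2 had its highest peak at -10783 bp, near NACC1, at the same base in all 6 libraries, with percentiles of 93.0 to 97.0 in shHNRNPU and 96.1 to 98.2 in shLUC. IER3 had the lowest values of the 4, from 40.6 to 82.4 in shHNRNPU and 54.8 to 77.6 in shLUC.

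**Figure D2:**
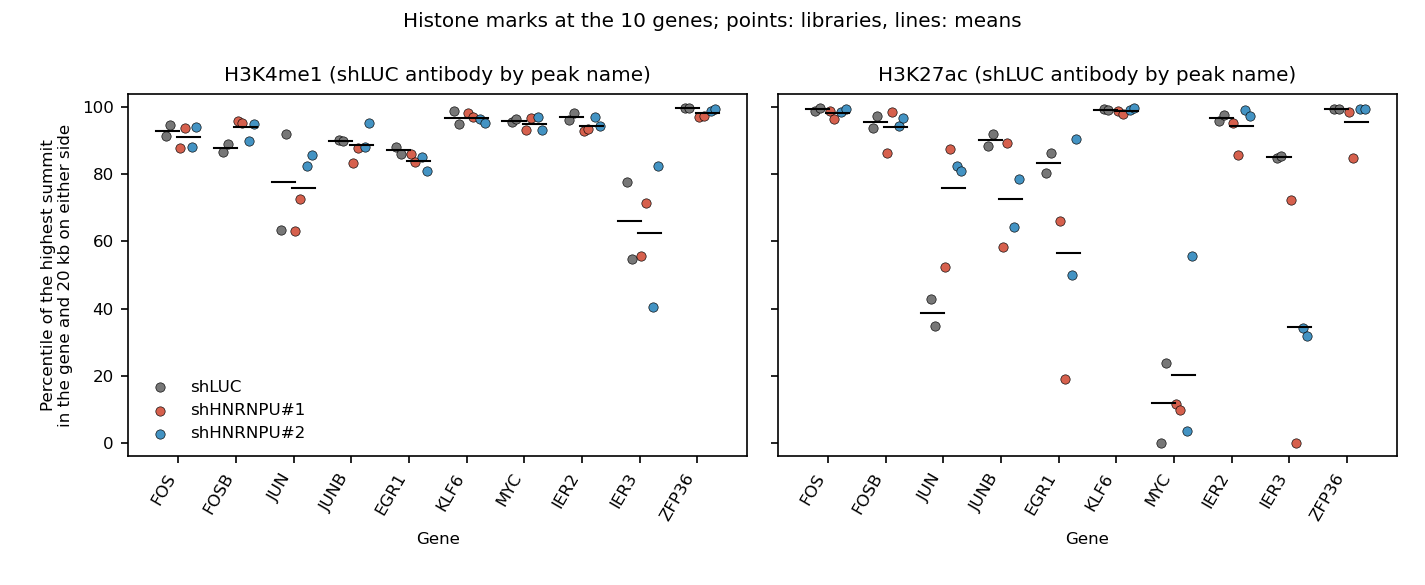
Percentile of the highest H3K4me1 (left) and H3K27ac (right) summit in each gene and 20 kb on either side, with 1 point per library and a line at the mean of the 2 shLUC and of the 4 shHNRNPU libraries. Most groups overlap. For H3K27ac, JUN lies at 52.4 to 87.5 in shHNRNPU against 34.7 to 42.8 in shLUC, and IER3 at 0 to 72.2 against 84.9 to 85.4.

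H3K27ac at JUN was higher in the knockdown libraries. Its percentiles were 52.4 and 87.5 in shHNRNPU#1, 82.5 and 81.1 in shHNRNPU#2, and 42.8 and 34.7 in shLUC. Every shHNRNPU library was above both shLUC libraries, by 37.1 points in the means (75.9 ± 15.9, n = 4, against 38.7 ± 5.74, n = 2, exact permutation p = 0.0667, the smallest this design allows). The summit lay at the JUN start in all 4 shHNRNPU libraries, from -185 to 22 bp, and in shLUC repeat 1, at -226 bp. In shLUC repeat 2 no summit was called at the start, and its value came from a weak peak at 10556 bp. Leaving out any 1 library kept the difference between 33.1 and 45.0. The difference is not independent of the choice of antibody labels. With the titles, the shLUC values become 63.5 and 92.1, the groups overlap and the difference is -1.92.

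IER3 was lower. Its H3K27ac percentiles were 72.2 and 0 in shHNRNPU#1, 34.1 and 31.9 in shHNRNPU#2, and 84.9 and 85.4 in shLUC. The mean difference was -50.6 (34.6 ± 29.6, n = 4, against 85.1 ± 0.351, n = 2, exact permutation p = 0.2). The shLUC summits were at FLOT1, at 13597 and 13457 bp, and within 5 kb of IER3 the difference was 2.54 instead. By title the IER3 groups overlapped, with a difference of -31.6. By this rule 1 of the 10 genes was higher and 1 lower in H3K27ac, against 2.08% and 11.3% of 18573 genes. Within 1 kb it was 1 higher, again JUN, and 0 lower, against 2.05% and 11.2%. Over all genes, lower values were thus more frequent than higher ones, and the median difference was -3.20, against -1.97 over the 10 genes. Both shHNRNPU#1 lists were the shortest of this mark and had the lowest medians over all genes, 73.7 and 67.0. Those of shHNRNPU#2 were 82.2 and 83.9, and those of shLUC 78.8 and 86.4. The part played by list length was not tested.

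The other 8 genes overlapped in H3K27ac. FOS was among the strongest sites, at 99.0 and 96.4 in shHNRNPU#1, 98.5 and 99.3 in shHNRNPU#2, and 98.9 and 99.8 in shLUC. Its promoter summit was called at -271 bp in all 4 shHNRNPU libraries, the same base as the HNRNPU summit in untransfected cells. Both shLUC libraries also had a promoter summit, at -74 and -264 bp. Its percentiles were 96.1 and 95.5 in shLUC and 92.8 to 99.3 in shHNRNPU. The distal FOS peaks that held HNRNPU also held H3K27ac in all 6 libraries. The one at 15246 bp ranged from 96.4 to 99.8, and the one between -19431 and -19935 bp from 91.1 to 99.3. KLF6 kept an H3K27ac summit between -378 and -375 bp in all 6 libraries, at 98.1 to 99.7 in shHNRNPU and 99.0 to 99.3 in shLUC.

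MYC had little H3K27ac. Its percentiles were 11.6 and 9.89 in shHNRNPU#1, 3.38 and 55.8 in shHNRNPU#2, and 0 and 23.9 in shLUC. All of its H3K27ac values came from the first part of the gene, at 637 to 751 bp, where HNRNPU had its summit. EGR1 varied most of these 8. It had 66.1 and 19.1 in shHNRNPU#1, 50.1 and 90.4 in shHNRNPU#2, and 80.3 and 86.4 in shLUC, and the mean difference of -27.0 was smaller than the SD of 29.9 among the shHNRNPU libraries. JUNB had 58.4 and 89.3 in shHNRNPU#1, 64.4 and 78.7 in shHNRNPU#2, and 88.2 and 92.1 in shLUC, all from summits at neighbouring genes. FOSB was at 86.3 to 98.4 in shHNRNPU and 93.6 to 97.4 in shLUC, from a peak beyond its 3′ end between 10697 and 11105 bp. IER2 was at 85.8 to 99.1 and 95.7 to 97.7, and ZFP36 at 85.0 to 99.6 and 99.4 to 99.5, with its highest summits at PLEKHG2 in 5 of the 6 libraries.

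limma, run on quantile-normalised log2(highest score + 1) over all genes, called none of the 10 genes for either mark at an adjusted p of 0.05. At an unadjusted p below 0.05 it had 1 of the 10 genes for H3K4me1, ZFP36, against 7.07% of all genes, and 3 for H3K27ac, against 5.67%. The 3 were JUN, with a log2 difference of 1.25 (SE 0.39, limma adjusted p = 0.749), MYC, with 1.14 (SE 0.45, adjusted p = 0.842), and IER3, with -1.32 (SE 0.49, adjusted p = 0.838).

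With antibodies taken from the sample titles, the picture was different. For H3K4me1, JUN and MYC were then higher and FOS, KLF6 and IER3 lower, against 40.2% and 22.3% of all genes, and for H3K27ac, FOS was higher and JUNB, MYC and ZFP36 lower, against 15.3% and 44.4%. Within 1 kb by title, 3 were higher and 2 lower for H3K4me1, against 37.2% and 24.1%, and 1 higher and 4 lower for H3K27ac, against 16.4% and 41.4%. The MYC difference was 83.1 points for H3K4me1 and -75.7 for H3K27ac. By title, limma called 3 of the 10 genes for H3K4me1 (FOS, KLF6 and MYC, with adjusted p from 0.000382 to 0.0342) and 2 for H3K27ac (FOS and MYC, with adjusted p of 0.0157 and 0.0128), in opposite directions for the 2 marks at FOS and MYC. With the repeat number as a block it called 4 for H3K4me1 by title, since the limma adjusted p of IER3 went from 0.0515 to 0.0469. It called 9233 of 18509 genes for H3K4me1 by title, against 10 of 18479 by peak name.

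At the level of single peaks, summits within 250 bp of each other were joined into sites. The windows of the 10 genes held 136 H3K4me1 sites, of which 45 (33.1%) were called in all 6 libraries, against 25.4% of sites in the genome. No site was present in all 4 shHNRNPU libraries and absent from both shLUC libraries, or the reverse, against 0.577% gained and 1.28% lost in the genome. For H3K27ac, 14 of 65 sites (21.5%) were in all 6 libraries, against 7.66% in the genome, none was gained and 1 was lost, against 0.227% and 1.93%. The lost site was in IER2, at 1202 bp from its start (chromosome 19, position 13151613), and was at the same base in both shLUC libraries, at percentiles of 33.0 and 25.7. By title, 26 H3K4me1 sites were gained and 3 lost in these windows, against 16.2% and 3.14% in the genome, and 2 H3K27ac sites were gained and 33 of 116 lost, against 1.29% and 26%.

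**Figure D3:**
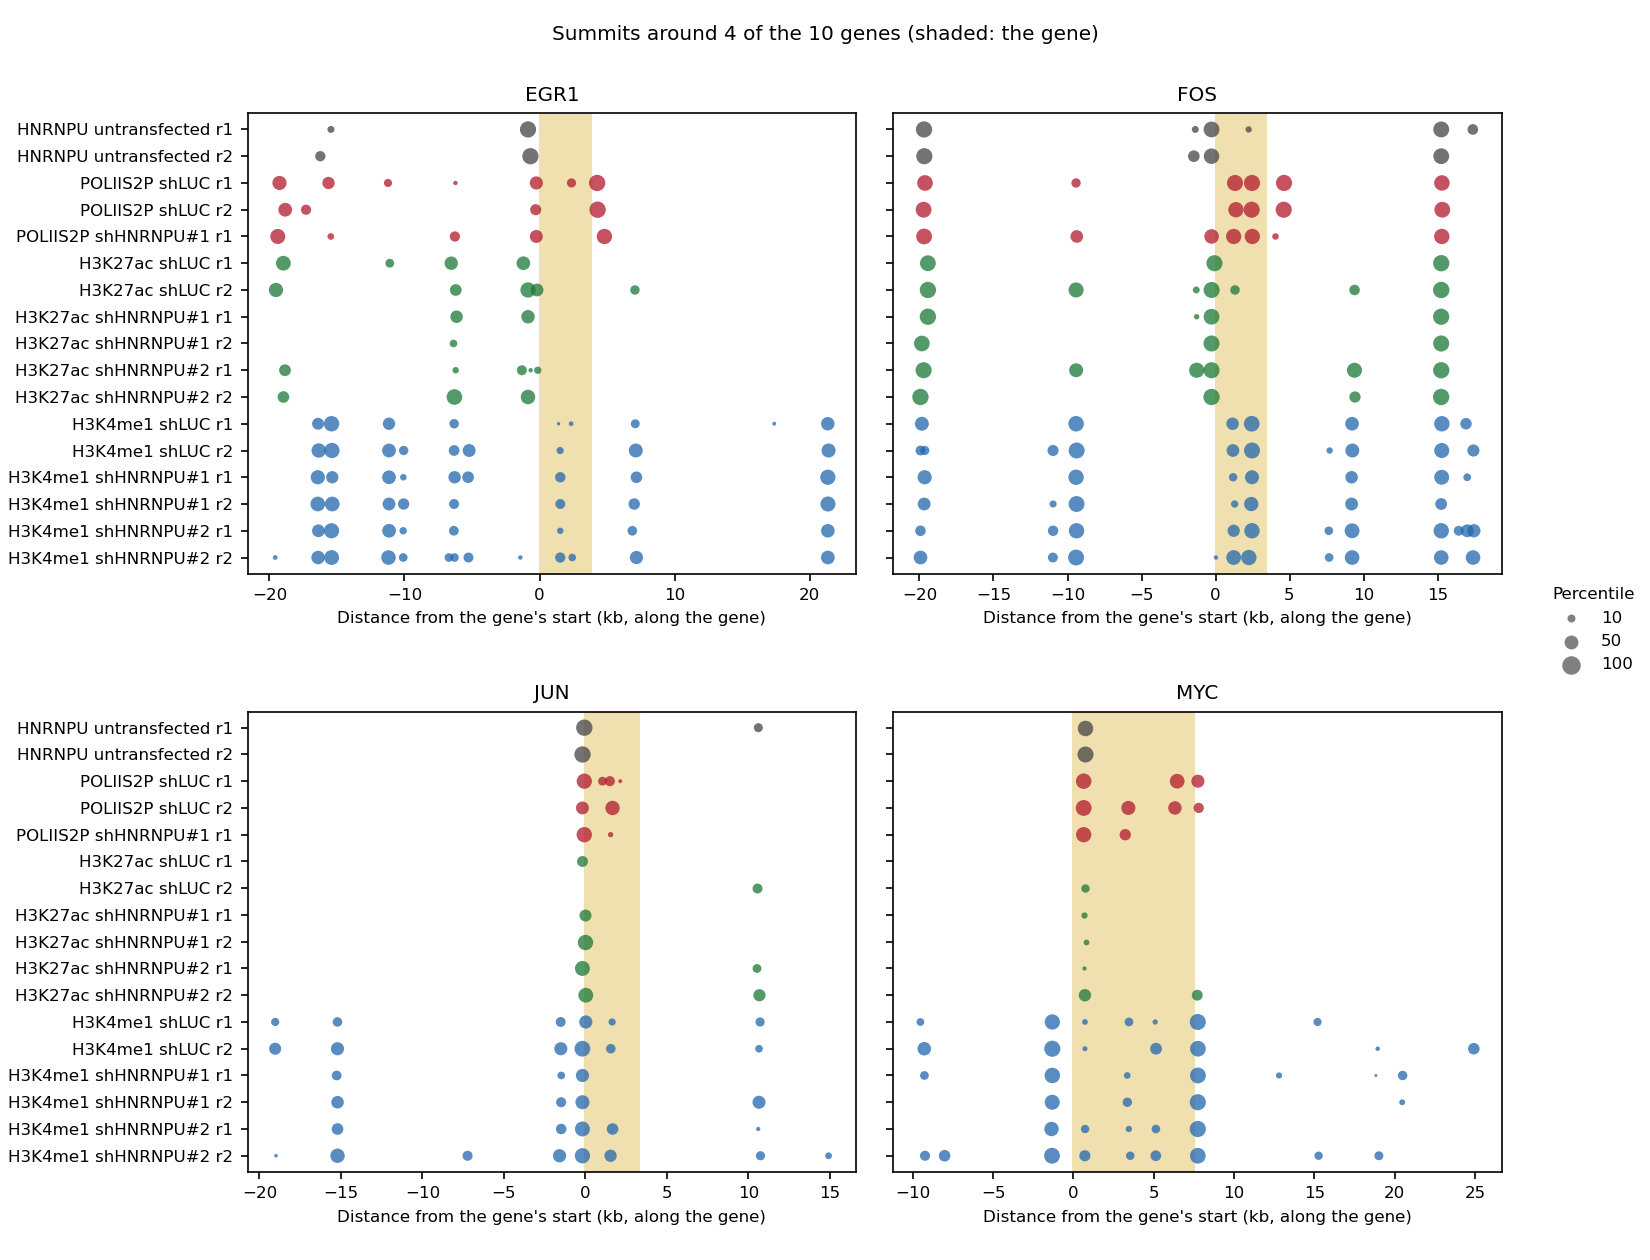
All summits in the windows of EGR1, FOS, JUN and MYC by distance from the gene's start (kb, along the gene), with 1 row per library and point area set by percentile. The shaded band is the gene. FOS shows the same peaks at its promoter, at the far left of the window and at 15246 bp with HNRNPU and H3K27ac, and EGR1 shows the POLIIS2P summits past its 3′ end at 4269, 4303 and 4805 bp.

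POLIIS2P was compared in 1 shHNRNPU#1 library and 2 shLUC libraries. With 1 library in a group there is no test, and the values compare these libraries and not the conditions. Over the 20 kb windows, the shHNRNPU#1 value was below both shLUC values for 7 genes (FOS, FOSB, JUNB, EGR1, MYC, IER2 and IER3) and above both for 3 (JUN, KLF6 and ZFP36), against 39.5% below and 32.1% above over 17062 genes. The values of FOSB, JUNB and IER3 came from summits at RTN2, PRDX2 and TUBB in every library. Those of ZFP36 also came from summits at neighbouring genes, PLEKHG2 or SAMD4B, PAF1 and MED29. Most gaps were small, and the median difference was -0.260, against -0.132 over all genes. EGR1 alone was lower by at least 10 points and 0 genes were higher by as much, against 7.91% and 5.32% of all genes. Within 1 kb, 6 were below and 3 above, against 36.6% and 32.6%, and by at least 10 points 3 were lower (EGR1, IER2 and IER3) and 0 higher, against 10.6% and 7.49%.

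At EGR1, POLIIS2P was among the strongest peaks of the control cells. Its percentiles were 99.5 and 99.3 in shLUC and 86.9 in shHNRNPU#1. The summits of shLUC lay past the 3′ end of the gene, at 4269 and 4303 bp from the start, and that of shHNRNPU#1 lay farther downstream, at 4805 bp. At the EGR1 start, POLIIS2P had 63.4 and 44.0 in shLUC and 61.2 in shHNRNPU#1, so the shHNRNPU#1 value fell between the controls.

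FOS had 97.3 and 96.6 in shLUC and 92.2 in shHNRNPU#1. Past its 3′ end, summits at 4628 and 4605 bp in shLUC had percentiles of 97.3 and 96.5, and the nearest shHNRNPU#1 summit, at 4049 bp, had 13.0. At its promoter the order was the other way. A POLIIS2P summit at -265 bp, beside the printed sequence, had a percentile of 78.0 in shHNRNPU#1, and neither shLUC library had a summit within 1 kb of the FOS start. MYC had 88.9 and 93.3 in shLUC and 86.8 in shHNRNPU#1, and this summit was at 637 bp in all 3 libraries. Towards the end of MYC, shLUC had summits at 6458 and 6316 bp, with 79.9 and 66.6, and shHNRNPU#1 had none.

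After these values had been seen, the same comparison was made over the second part of each gene, from its middle to 2 kb past its 3′ end. There, shHNRNPU#1 was below both shLUC libraries for 7 genes (FOS, FOSB, JUN, EGR1, MYC, IER2 and IER3), above both for KLF6 and between them for JUNB and ZFP36, against 41.2% below and 26.4% above over 10811 genes with a known strand and a summit there. Genes without a known strand were left out, since their 3′ end could not be placed. By at least 10 points, 5 genes were lower (FOSB, EGR1, MYC, IER2 and IER3) and 0 higher, against 16.9% and 9.25%. The median difference was -11.7 over the 10 genes and -1.43 over those 10811 genes. Because the region was chosen on these libraries, this is a description of them.

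In that region FOSB had 65.8 and 87.3 in shLUC and no summit in shHNRNPU#1. IER2 had 96.6 and 96.7 in shLUC and 85.8 in shHNRNPU#1, from summits at 5341, 5343 and 5339 bp that lay within 4 bp of each other. IER3 had 94.4 and 85.0 in shLUC and 65.4 in shHNRNPU#1. For these 3 genes the control libraries were on the same side. JUN had 2.71 and 76.2 in shLUC and 0 in shHNRNPU#1, so its 2 controls lay far apart, and the shHNRNPU#1 summit at 1544 bp, with a percentile of 7.63, fell just before the middle of the gene. At the JUN start, beside the strongest HNRNPU peak, POLIIS2P had 85.8 and 61.0 in shLUC and 87.3 in shHNRNPU#1. KLF6 differed least, at 95.62 and 93.79 in shLUC and 95.63 in shHNRNPU#1. JUNB had 93.3 and 79.2 in shLUC and 80.8 in shHNRNPU#1, and ZFP36 had 0 and 65.6 in shLUC and 38.5 in shHNRNPU#1.

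**Figure D4:**
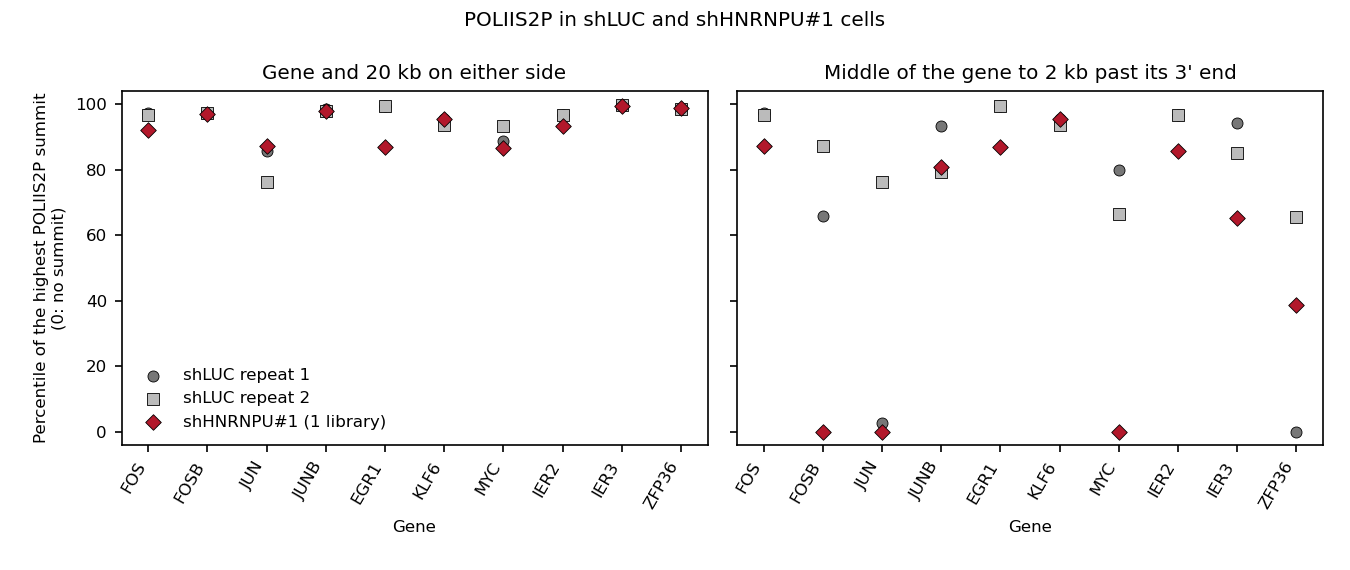
Percentile of the highest POLIIS2P summit (0 for no summit) in 2 shLUC libraries and 1 shHNRNPU#1 library, over the gene and 20 kb on either side (left) and from the middle of the gene to 2 kb past its 3′ end (right). EGR1 is at 86.9 in shHNRNPU#1 against 99.5 and 99.3 in both panels, and FOSB and MYC have no shHNRNPU#1 summit in the right panel.

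Another 46 genes were counted in the same way. They belong to the immediate early response, including the serum response factor pathway, or to the MYC network. For H3K4me1, 5 of the 46 were higher and 8 lower, against 7.11% and 8.19% of all genes, with a median difference of -0.105 against -0.229. For H3K27ac, 2 were higher and 8 lower, against 2.08% and 11.3%, with a median of -3.80 against -3.20. In POLIIS2P over 20 kb, 16 were above and 18 below both shLUC libraries, against 32.1% and 39.5%. In the second part of the gene, 28 of the 46 had both a known strand and a summit there. Of these, 5 were above and 14 below, against 26.4% and 41.2%, with a median of -7.62 against -1.43. The rest were not counted, which for a gene without a known strand does not mean that it lacked a summit.

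Of the genes of this list without overlap, the one with the largest rise and the one with the largest fall in each mark are given here. EGR3, a paralog of EGR1, was higher in H3K4me1, at 96.6 and 98.4 in shHNRNPU#1, 89.0 and 92.2 in shHNRNPU#2, and 83.9 and 85.8 in shLUC. ELK1, an ETS factor that acts with serum response factor, was lower, at 69.7, 68.7, 81.9 and 72.3 in shHNRNPU and 82.26 and 82.25 in shLUC. MRTFA, a coactivator of serum response factor, was higher in H3K27ac, at 89.5, 92.2, 88.0 and 87.5 in shHNRNPU and 79.5 and 78.4 in shLUC. EGR4, a further EGR1 paralog, was lower, at 0, 0, 54.7 and 63.4 in shHNRNPU and 64.0 and 85.3 in shLUC. The MYC paralog MYCN overlapped in both marks, at 96.2 to 98.1 for H3K4me1 and 38.6 to 85.1 for H3K27ac over the 6 libraries. Its H3K27ac values were all above those of MYC in the same libraries, and MYCL, the other paralog, ranged from 0 to 78.5.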

How the data were processed

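Per the labels, CUT&Tag libraries of H1 cells were processed with cutadapt, Bowtie2, SAMtools, MACS2 and deepTools on hg38, as the submitters' processing notes list them, with no versions or settings given in the sources used here. The authors deposited 1 summit list per library. The authors' peak caller wrote the deposited −log10 values in column 5, which were read as p-values or q-values from the MACS layout of the lists. The lowest scores were 2.00 to 2.01 in histone lists and 1.30 in the others, which correspond to 0.01 and 0.05. The authors also deposited 48095 HNRNPU intervals of 400 bp, each with a score of 0, which served for positions only. Peaks were taken as called per library. Read counts are unknown, and depth moves both the number of summits and their scores, so only ranks within a list were compared. Values from different antibodies rest on lists of different length. Of the 20000 highest-scoring POLIIS2P summits of shLUC repeat 1, 36.3% lay within 1000 bp of a gene end. After shifts by 20000 bp in either direction the share was 6.95% and 7.26%, which checks the build.

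Groups came from the sample titles. For the 4 shLUC histone libraries the antibody was taken from the peak names, and from the titles as the alternative. Gene positions came from the RefSeq table of GRCh38.p14, and strands from its promoter table for 8 of the 10 genes. MYC and IER3 have no entry there, and their known strands (plus and minus) were used. Distances run along the gene. The 10 genes, the 46 further genes, the windows and the motifs were chosen with earlier results of these data known. All 10 genes are named, and of the 46 only MYCN, MYCL and, per histone mark, the largest rise and fall of the mean among genes without overlap.

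The main comparison asked whether the 4 shHNRNPU values lay all above or all below the 2 shLUC values, with a two-sided exact permutation test of the mean difference over 15 assignments. Alternatives were windows of 5 and 1 kb, the 20000 highest-scoring summits, a minimum score of 5, summits in the window per 100000 in the list, each hairpin alone, each library left out, limma 3.58.1 (R 4.3.3), and both tests with the repeat number as a block. Libraries with the same repeat number shared little deviation in their scores, with correlations from -0.010 to 0.037. This does not tell whether they were prepared together. Between repeats, 2.15 to 8.70% of summits were at the same base, so no pair of lists repeats the other. Python 3.11.15, SciPy 1.17.1 and pandas 2.3.3 were used, and the scripts were tested on simulated data.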

Additional observations from a re-analysis of the deposited data

Results flagged for a closer look

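In the groups of 4 shHNRNPU libraries, 20 sets of values (10 genes, 2 histone marks) were examined for a library far from the other 3, and 3 were found. For independent, normally distributed values, chance gives such a library in about 5% of sets. The rate for percentiles such as these was not computed, so 3 of 20 cannot be read against it. FOSB had an H3K4me1 percentile of 89.9 in shHNRNPU#2 repeat 1, where the nearest other library had 94.9 and the highest 95.9. MYC had an H3K27ac percentile of 55.8 in shHNRNPU#2 repeat 2, where the nearest other had 11.6 and the lowest 3.38. ZFP36 had an H3K27ac percentile of 85.0 in shHNRNPU#1 repeat 2, where the nearest other had 98.6 and the highest 99.6. That library held 40487 summits, the shortest of the H3K27ac lists. The MYC summit of shHNRNPU#2 repeat 2 was at 714 bp from the start, and the 3 lower ones were at 637, 751 and 644 bp. The cause of these 3 values was not tested.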

How the results depend on the processing

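The groups are small (4 against 2 histone libraries, 1 against 2 POLIIS2P libraries), read depth is unknown, and the antibody of the shLUC histone libraries is disputed between titles and peak names. No exact permutation p-value here can pass 0.05, so those p-values say nothing about stability. Causes of the changes below were not tested.

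The number of the 10 genes without overlap in H3K4me1 was 3. It was 5 by title, 1 for summits per 100000, 5 with shHNRNPU#1 alone, 0 by limma and 3 to 7 with 1 library left out, the 7 being without shLUC repeat 1. The median difference of -1.63 was 0.0617 for summits per 100000. The 0 sites gained or lost in H3K4me1 became 29 by title, 2 among the 20000 highest-scoring summits, 3 with a minimum score of 5, 11 with shHNRNPU#1 alone, 3 with shHNRNPU#2 alone and 0 to 7 with 1 library left out, the 7 being without shLUC repeat 1 or repeat 2. In H3K27ac the number of genes without overlap was 2. It was 4 by title, 1 at 1 kb, 1 among the 20000 highest-scoring summits, 6 with shHNRNPU#1 alone, 0 by limma and 2 to 4 with 1 library left out, the 4 being without shLUC repeat 1. The median of -1.97 was 0.634 for summits per 100000. The 1 site became 35 by title, 2 among the 20000 highest-scoring summits, 3 with a minimum score of 5, 2 with shHNRNPU#1 alone, 6 with shHNRNPU#2 alone and 1 to 14 with 1 library left out, the 14 being without shLUC repeat 1. For POLIIS2P, the 7 genes below both controls became 3 for summits per 100000 and 1 when a gap of 10 points was asked for, and the median of -0.260 was -4.67 at 5 kb, -5.27 at 1 kb, -0.807 with a minimum score of 5, 0.0982 for summits per 100000 and -11.7 in the second part of the gene. The last region and the gap of 10 points were added after seeing the data. HNRNPU summits at 9 genes became 7 to 9 under the alternatives and 9 to 10 with 1 repeat left out.

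Differences of genes without overlap changed sign in these cases. FOSB in H3K4me1 was -1.50 by title and -1.08 in summits per 100000. EGR1 in H3K4me1 was 0.522 by title, 19.9 at 1 kb and 0.512 in summits per 100000. ZFP36 in H3K4me1 was 5.91 at 5 kb. In H3K27ac, JUN was -1.92 by title and IER3 2.54 at 5 kb. In POLIIS2P, summits per 100000 gave 2.40 for FOS, -0.955 for JUN, 1.60 for IER2 and 2.31 for IER3, and the second part of the gene gave -39.4 for JUN. Among genes with overlap, sign changes included IER2 in H3K4me1, from -2.72 to 10.0 at 5 kb and 11.3 at 1 kb, and IER3 in H3K4me1, from -3.64 to 10.0 and 2.63.

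With the repeat number as a block, limma called 0 of the 10 genes in each mark, with 0 genes for H3K4me1 and 3 for H3K27ac at an unadjusted p below 0.05. The exact permutation within repeat numbers left the medians at -1.63 and -1.97, with a smallest possible p of 0.111. By title, the block raised the number called for H3K4me1 from 3 to 4, with IER3 added.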
